A study of Saccharomyces cerevisiae with 16 samples.

Results

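The nuclear genes for mitochondrial ribosomal proteins of Saccharomyces cerevisiae were followed through wine fermentations run with or without a spoilage yeast. A gene was a member when its standard symbol was MRPL, MRPS, MRP or RSM followed by a number, with MRP8 left out. This gave 66 of the 6256 gene probes on the array, 38 for the large and 28 for the small subunit. Symbols and subunits came from systematic gene names matched to a RefSeq table of the laboratory strain S288C. The table also gave 41 members a family name shared with bacterial ribosomal proteins (for example uL14m) and 24 a mitochondria-specific name (for example mL46). RSM22 had no family name.

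The mitochondrial ribosome, or mitoribosome, sits in the inner compartment of the organelle and translates the few messages of mitochondrial DNA, mostly subunits of the respiratory chain and ATP synthase. Its large subunit forms peptide bonds and its small subunit reads the codons. Nearly all of its proteins are encoded in the nucleus, made on cytosolic ribosomes and imported, and in yeast the complex is needed for respiration but not for growth by fermentation.

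The cells were the industrial wine yeast Lalvin EC1118 in an artificial must at 22 °C, in bioreactors divided by a dialysis membrane. In mixed fermentations Dekkera bruxellensis strain ZIM 701, a spoilage yeast, was inoculated on the other side, and in control fermentations that side was left sterile. Duplicate fermentations of each kind were sampled in exponential growth (22 h), in early and late stationary phase (92 h and 144 h) and in decline (187 h), so each of the 8 groups had 2 arrays. Only S. cerevisiae transcripts were measured, on 16 one-colour arrays, and whether 1 vessel gave the cells of all 4 times is not stated. If so, samples that depend on each other are treated as independent in the tests of the average and of the steps. The p-values measure only the spread between these arrays.

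Levels are log2 signals minus the 75th percentile of their own array, and differences are mixed minus control or later minus earlier, with the standard error from a limma fit over 6184 probes. Called means a Benjamini-Hochberg adjusted p under 0.05 over all of those probes. Levels of different probes are not comparable, so each gene is set only against itself. Equal masses of RNA were labelled, and in such bulk cultures a lower level per cell and fewer expressing cells cannot be told apart.

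Every member was well above background on all 16 arrays, where 95.4% to 98.0% of gene probes were. The growth phase labels held for most of their marker genes: from 22 h to 92 h the mean levels of the stationary phase genes HSP26, SPG1, SPG4, GRE1 and SSA3 went up and those of the cyclin genes CLN1 and CLN2 went down in both kinds of fermentation. HSP12 changed little in controls (-4.26 at 92 h, -4.36 at 22 h), and RNR1 did not go down (0.96 in mixed and 1.29 in control at 92 h). Kind went with the row and time with the column of an array on both slides, so neither can be told apart from place on the slide. Slide 1 held replicate 1 of every group and slide 2 held replicate 2. The first control array of 187 h had 455 probes whose 2 spots lay over 1 log2 apart, against 25 to 89 on the other arrays, and 6 of them were members (MRPL16, MRPS12, MRP17, RSM27, MRPL15 and MRP1). With the brighter spot of such pairs in place of their mean, 10 members were lower and 1 was higher in mixed fermentations at 187 h.

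**Figure D1:**
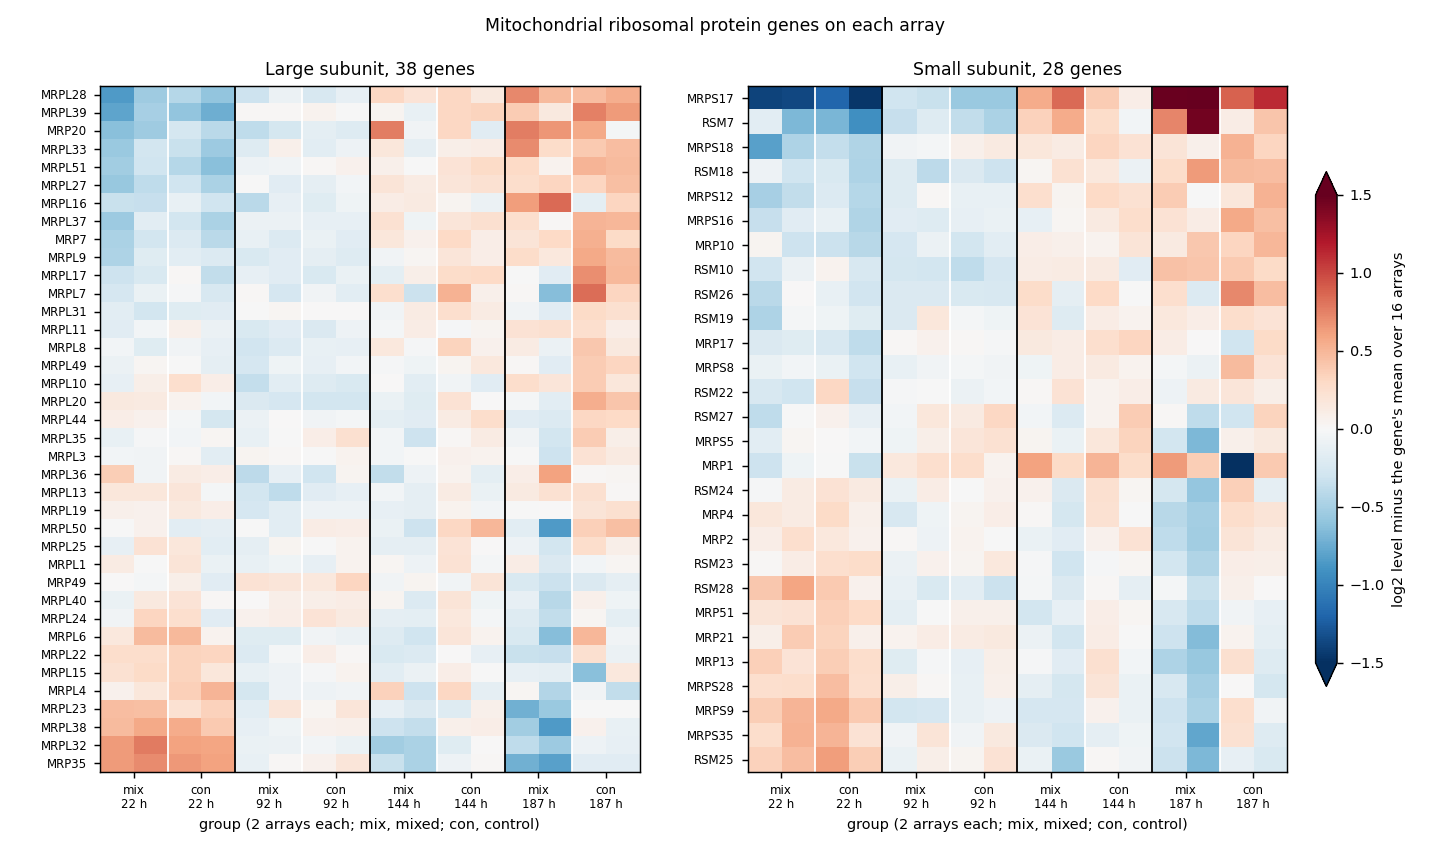
Level of each of the 66 genes (rows, split by subunit and ordered by their pattern) on each of the 16 arrays (columns, 2 per group, mixed left of control at each time), as log2 minus the gene's own mean over the arrays; colours end at 1.5 in both directions, which MRPS17 and MRP1 exceed. Most rows change by less than 1 across the groups, MRPS17 is highest at 187 h and MRP1 has a single low array in the 187 h controls.

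At 187 h, in the decline phase, 11 of the 66 members were lower in mixed than in control fermentations and 2 were higher, while 4.46% of all probes were called lower and 2.81% higher (7.28% in either direction). The median difference over the members was -0.30, with -0.25 on slide 1 and -0.34 on slide 2, against -0.06 over all probes. Both mixed arrays lay below both control arrays for 42 members, above them for 6 and overlapped for 18, and over all probes 33.7% lay below and 21.8% above. The member calls did not hold without the first control array of 187 h or without the second mixed array of 187 h. Each of these fits leaves 1 array in a group, and the counts over all probes in them are not given. The member medians there were -0.26 and -0.23, against -0.06 and -0.01 over all probes. On a scale set by spike-in RNA 0 members were lower and 1 higher, although the median was still -0.31. When the 4 arrays of 187 h were fitted alone, 0 members were called. The first mixed array of 187 h was the only array whose processed signal had no multiplicative detrending, and it held 30 of the 50 outlier spots. With signals not detrended on any array, MRP4, MRPL17, MRPS5 and MRPS9 no longer passed as lower, nor MRPL16 and MRPS17 as higher.

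**Figure D2:**
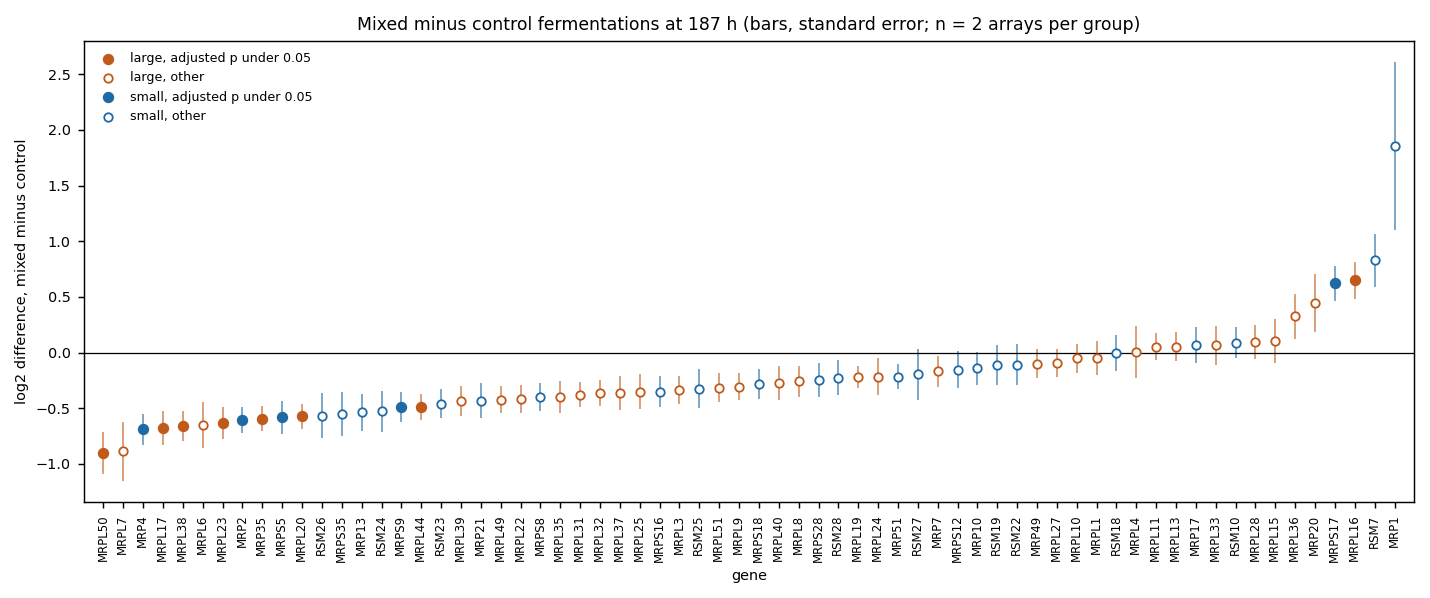
Difference between mixed and control fermentations at 187 h for each member, ordered from lowest to highest (log2, bars are standard errors, 2 arrays per group; orange, large subunit; blue, small subunit; filled, adjusted p under 0.05). The 13 filled points are the 11 lower and 2 higher members, and MRP1, at the right end, has the widest error.

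Of the 11 lower members 7 were large subunit genes. MRPL50, the bL9m protein, stood at -1.48 and -2.18 in mixed fermentations at 187 h, against -0.97 and -0.88 in controls, a difference of -0.91 ± 0.19 (1.87-fold lower, limma adjusted p = 0.0308). It was the gene whose slides differed most among the 11 (-0.51 on slide 1 and -1.30 on slide 2), but both mixed arrays were below both controls. MRPL38, the uL14m protein, stood at -1.63 and -1.95 in mixed fermentations and at -1.04 and -1.22 in controls (-0.66 ± 0.13, limma adjusted p = 0.0305). Its bacterial counterpart lies where the large subunit meets the small one.

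MRP35, the bL35m protein, had the smallest adjusted p of the members at 187 h. Its levels were -1.73 and -1.83 in mixed fermentations and -1.19 and -1.18 in controls, with the arrays of each group close together (-0.59 ± 0.11, limma adjusted p = 0.0263). MRPL23, the uL13m protein, stood at -1.21 and -1.05 in mixed fermentations, against -0.50 and -0.49 in controls (-0.63 ± 0.14). No array of either group reached the range of the other for MRP35 or MRPL23.

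The 3 other lower genes of the large subunit encode proteins with mitochondria-specific family names. MRPL17 (mL46) stood at -1.89 and -2.05 in mixed fermentations and at -1.19 and -1.40 in controls (-0.68 ± 0.15). MRPL20 (mL58) stood at -0.27 and -0.39 in mixed fermentations, against 0.31 and 0.18 in controls, the same difference of -0.57 on both slides. MRPL44 (mL53) stood at -0.36 and -0.40 in mixed fermentations and at 0.12 and 0.10 in controls (-0.49 ± 0.12). For each of these genes both mixed arrays lay below both control arrays.

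The other 4 lower members were small subunit genes, each of a family shared with bacteria. MRP4, the uS2m protein, stood at -0.86 and -0.95 in mixed fermentations at 187 h, against -0.18 and -0.25 in controls (-0.69 ± 0.14, limma adjusted p = 0.0308). MRP4 shares its locus with the annotated gene YHL005C, and whether the probe reads both was not tested. MRP2 (uS14m) stood at -1.87 and -2.00 in mixed fermentations and at -1.29 and -1.36 in controls (-0.61 ± 0.12).

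MRPS5 (uS5m), whose bacterial counterpart takes part in decoding accuracy, stood at -1.42 and -1.81 in mixed fermentations, against -1.06 and -0.9996 in controls (-0.58 ± 0.15). MRPS9 (uS9m) stood at -1.76 and -1.92 in mixed fermentations and at -1.19 and -1.49 in controls, a difference of -0.49 ± 0.13 at the edge of the threshold (limma adjusted p = 0.0489). With the brighter spot of unequal pairs MRPS9 did not pass (adjusted p = 0.0531).

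On the other side, 2 members were higher at 187 h. MRPS17 (uS17m), whose bacterial counterpart binds ribosomal RNA early in small subunit assembly, stood at 2.47 and 2.76 in mixed fermentations, against 1.87 and 2.11 in controls (0.62 ± 0.16, limma adjusted p = 0.0460). MRPL16 (uL16m), whose bacterial counterpart lies near the site where tRNA is accepted, stood at 0.56 and 0.78 in mixed fermentations and at -0.22 and 0.25 in controls (0.65 ± 0.17, limma adjusted p = 0.0442). The lower of these control values is the mean of spots at 0.31 and -0.74, and with the brighter spot the difference was 0.40 and did not pass (adjusted p = 0.0799).

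Some of the widest differences at 187 h were not called. MRPL7 (uL5m) stood at -1.07 and -1.74 in mixed fermentations, against -0.26 and -0.78 in controls (-0.89 ± 0.27, adjusted p = 0.0656). RSM7 (uS7m) stood at 2.64 and 3.35 in mixed fermentations and at 2.01 and 2.32 in controls (0.83 ± 0.24, adjusted p = 0.0591). MRP1 (mS43) stood at 0.53 and 0.26 in mixed fermentations, against -3.21 and 0.28 in controls, where the low value averages spots at 0.62 and -7.04. These 3 genes were named after their values were seen.

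**Figure D3:**
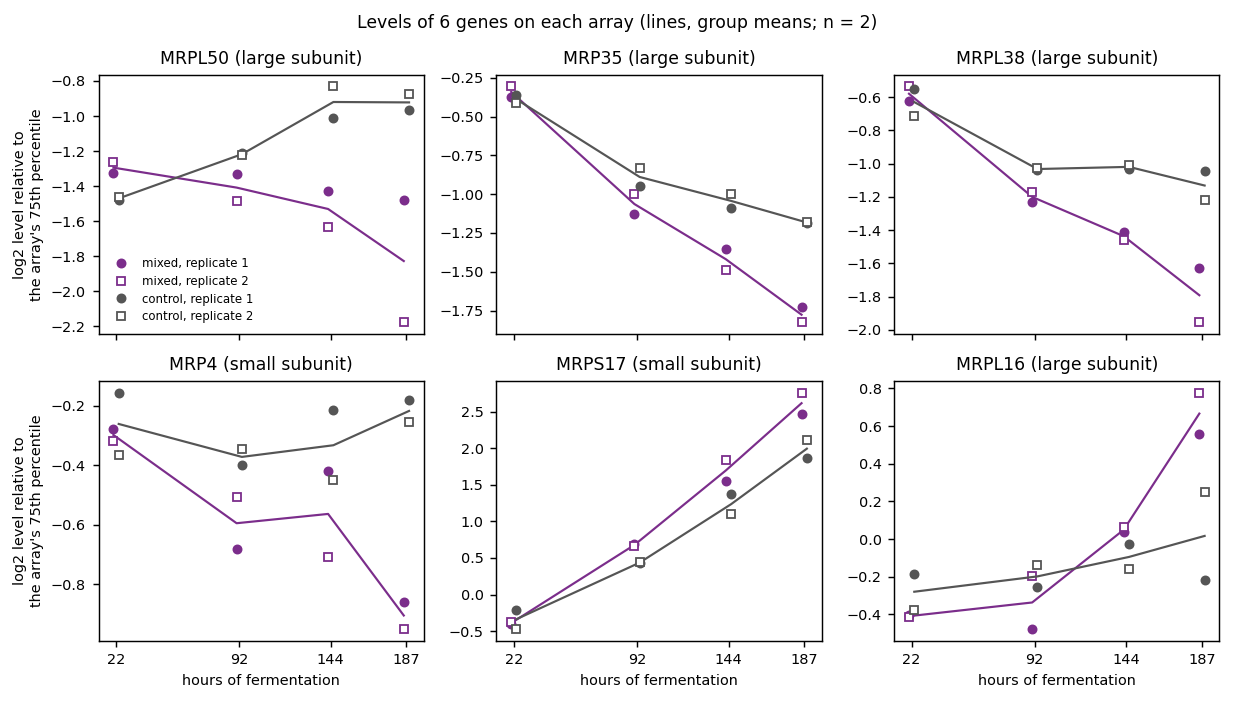
Levels of 6 members at each time on each array (log2 relative to the 75th percentile of the array; purple, mixed; grey, control; filled, replicate 1; open, replicate 2; lines join group means). MRPL50, MRP35, MRPL38 and MRP4 are lower and MRPS17 and MRPL16 higher in mixed fermentations at 187 h, and MRPS17 climbs at each step on this scale, whereas its first step is -0.24 on the spike-in scale.

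Averaged over the 4 times, 8 members were lower and 1 was higher in mixed fermentations, against 5.37% and 3.22% of all probes (8.59% in either direction). The median over the members was -0.14 (-0.16 on slide 1 and -0.11 on slide 2) and that over all probes -0.03, and 54 of the 66 had a negative difference. MRPL50 (-0.38 ± 0.09), MRPL38 (-0.30 ± 0.07), MRP4 (-0.29 ± 0.07), MRPS5 (-0.27 ± 0.07), MRP35 (-0.27 ± 0.06), MRPL17 (-0.27 ± 0.08) and MRP2 (-0.22 ± 0.06) were lower here and at 187 h. RSM23 (mS29), a homologue of a human protein linked to cell death, was lower in the average alone (-0.23 ± 0.06, limma adjusted p = 0.0481), and MRPS17 was higher (0.32 ± 0.08, limma adjusted p = 0.0364). The average contains the 187 h arrays, and without them 0 members were called, as also on the spike-in scale, where the median was -0.01. With the fermentation (kind and replicate number) as a random block, which allows for the same vessels at all times, 2 were lower and 0 higher. With another scale, array medians, 1 was higher and 4 were lower, and the split over all probes turned to 261 higher and 209 lower, against 199 and 332. Leaving out single arrays gave 0 to 13 calls, and leaving out any array other than the first mixed and control arrays of 144 h, the first mixed array and the second control array of 187 h took the count to 5 or fewer.

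The arrays of 22 h, 92 h and 144 h gave no call among the members in limma, and at an unadjusted p under 0.05 there were 0 at 22 h, 0 at 92 h and 8 lower with 1 higher at 144 h. All probes were called in 0%, 0.0162% and 0% of cases, and their counts at the unadjusted level are not given here. At 22 h the member median was -0.02, with slides on opposite sides (-0.20 and 0.12), and it was 0.51 on the spike-in scale, as for all probes. The medians at 92 h and 144 h were -0.05 and -0.15, negative on both slides and on the spike-in scale (-0.16 and -0.06). Non-overlapping groups with mixed lower were counted for 10 members at 22 h (21% of all probes), 23 at 92 h (22.2%), 31 at 144 h (25.8%), and with mixed higher for 10 (13.2%), 7 (20.4%) and 3 (15.9%).

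The members of smallest p at these times are given by their values. At 22 h MRPL44 differed by 0.23 ± 0.12, RSM28 by 0.27 ± 0.16 and RSM7 by 0.39 ± 0.24, and MRPS18, RSM23 and MRPL10 by -0.23, -0.19 and -0.19, each of these 3 turning positive on the spike-in scale. At 92 h MRP4 and MRPL35 differed by -0.22 ± 0.14 and -0.23 ± 0.14, MRP35 by -0.17 ± 0.11, MRPS17 by 0.24 ± 0.16, RSM7 by 0.15 ± 0.24 and MRPS28 by 0.07 ± 0.15. At 144 h MRPL50 stood at -1.43 and -1.63 in mixed fermentations, against -1.01 and -0.83 in controls (-0.61 ± 0.19, limma adjusted p = 0.384). MRPL32 (bL32m, -0.40 ± 0.11, limma adjusted p = 0.358) and MRP35 (-0.38 ± 0.11, limma adjusted p = 0.377) had smaller p-values, and on the higher side stood MRPS17 (0.46 ± 0.16), RSM7 (0.34 ± 0.24) and MRP20 (0.28 ± 0.26). The groups of 144 h did not overlap for MRPL50, MRPL32, MRP35, MRPS17 and RSM7, and did for MRP20.

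Whether the difference itself changed with time was tested as the interaction of kind and time. No member was called in limma for the 187 h difference against the 22 h one, with 19 lower and 2 higher at an unadjusted p under 0.05 and a smallest adjusted p of 0.139, and over all probes 0 were called, with 560 lower and 442 higher at that unadjusted level. Between neighbouring times, 0 members were called as well, and at an unadjusted p under 0.05 there were 0 for 92 h against 22 h, 1 for 144 h against 92 h and 2 for 187 h against 144 h. The unadjusted counts over all probes for neighbouring times are not given, so these are a description only.

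The step from exponential growth to early stationary phase, taken as the mean of the mixed and control steps, moved members in both directions. From 22 h to 92 h 16 fell and 9 rose, while 29.2% of all probes fell and 36.2% rose (65.3% together), and the member median was -0.01 against 0.07 over all probes. With array medians 22 fell and 7 rose, and on the spike-in scale 63 fell and 0 rose, with a median of -1.17 beside -1.09 over all probes, so the rises below are rises relative to the other genes of the array.

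The widest fall was that of MRPL32. It stood at -2.29 and -2.28 in mixed fermentations at 92 h and at -1.55 and -1.41 at 22 h, and in controls at -2.23 and -2.29 at 92 h and at -1.58 and -1.597 at 22 h (-0.74 ± 0.08). MRPL32 (bL32m) is known in yeast and mouse as a protein cut by a mitochondrial protease on its way into the ribosome. MRPS9 (-0.64 ± 0.09), MRP35 (-0.61 ± 0.08), RSM28 (mS46, -0.56 ± 0.11), MRPL38 (-0.51 ± 0.09) and MRPL6 (uL6m, -0.42 ± 0.15, adjusted p = 0.0275) followed. MRPL32, MRPS9, MRP35, RSM28 and MRPL38 also fell in mixed and in control fermentations taken alone, where 23% and 23.3% of all probes fell.

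The rises of this step were led by MRPS17 (0.92 ± 0.11). MRPL39 (bL33m) rose by 0.67 ± 0.10, MRPS18 (uS11m) by 0.56 ± 0.10, MRPL51 (mL43) by 0.46 ± 0.09, MRPL28 (mL40) by 0.41 ± 0.11 and MRPL27 (mL41) by 0.35 ± 0.09. On the spike-in scale each of these 6 was lower at 92 h, from -0.24 (MRPS17) to -0.81 (MRPL27). MRPL51 overlaps the annotated gene YPR099C, and whether its probe reads both was not tested. Of the 16 members that fell at this step 5 were also among the 11 lower in mixed fermentations at 187 h, and 29.2% of all probes fell at this step. Both tests use the same spread per gene, taken from all 16 arrays. The same overlap over all probes is not given, so this count is a description only.

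Later steps moved few members on the main scale. From 92 h to 144 h 4 rose and 0 fell, with 6.34% of all probes higher and 9.04% lower (15.4% together), and at an unadjusted p under 0.05 18 were higher and 2 lower. They were MRPS17 (0.91 ± 0.11), RSM7 (0.63 ± 0.17), MRPL28 (0.43 ± 0.11) and RSM10 (uS10m, 0.35 ± 0.10). From 144 h to 187 h 4 rose and 0 fell, with 5.81% of all probes higher and 5.51% lower (11.3% together), and at the unadjusted level 15 were higher and 4 lower. These were MRPS17 (0.84 ± 0.11), MRPL10 (uL15m, 0.34 ± 0.09), MRPL39 (0.34 ± 0.10) and MRPL9 (uL3m, 0.31 ± 0.09). The unadjusted member counts of both steps stand without those of all probes, so they are a description only. With array medians 10 and 11 rose at these steps and the splits over all probes were 514 higher with 389 lower and 509 higher with 131 lower, and on the spike-in scale 0 members were called at either, with medians of -0.19 and -0.25. Leaving out single arrays gave 1 to 5 calls at each of these steps. The first of them had 1 or 2 calls when any 1 of the 92 h arrays was left out or without the first mixed or control array of 144 h, and the second had 1 or 2 when any 1 of the 144 h arrays was left out or without the first control array of 187 h.

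MRPS17 was the only member called higher at all 3 steps (20 had a positive difference at each), and on the spike-in scale its first step was -0.24. In mixed fermentations it stood at -0.40 and -0.38 at 22 h, 0.70 and 0.66 at 92 h, 1.55 and 1.84 at 144 h and 2.47 and 2.76 at 187 h. In controls it stood at -0.20 and -0.47, 0.43 and 0.44, 1.38 and 1.10, and 1.87 and 2.11 at the same times. The 2 kinds overlapped at 22 h and not at the later times. Its 8 group means spanned 3.003 log2, the widest span of the 66, and its pooled SD within groups was 0.15.

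The other members varied less. The span of the 8 group means had a median of 0.74 over the members and was narrowest for MRPL1 (uL1m, 0.19), and 14 members spanned over 1. The pooled SD within groups had a median of 0.14, was lowest at 0.04 and was highest for MRP1 (0.89), the gene with the dim spot. RSM7 spanned 1.89, MRP35 1.44 and MRPL39 1.36. In all, 30 of the 66 were called in none of the 8 comparisons (the average, the 4 times and the 3 steps). The share of all probes called in none is not given, but 65.3% of them were called at the step from 22 h to 92 h alone.

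From 22 h to 187 h the median member changed by -0.06 in mixed fermentations and by 0.18 in controls. In mixed fermentations 32 members had a higher mean and 34 a lower mean at 187 h than at 22 h, and in controls 42 and 24. On the spike-in scale only MRPS17 had a higher mean at 187 h in either kind, and the medians were -2.05 in mixed fermentations and -1.27 in controls, beside -1.99 and -1.41 over all probes. With array medians the median in mixed fermentations turned to 0.03. MRP35 had the lowest change in mixed fermentations (-1.44), against -0.79 in controls, and MRPS17 the highest (3.003 in mixed fermentations and 2.33 in controls, or 1.01 and 0.88 on the spike-in scale). The test of the difference between the kinds is the interaction above, in which MRP35 and MRPL50 had an adjusted p of 0.143.

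**Figure D4:**
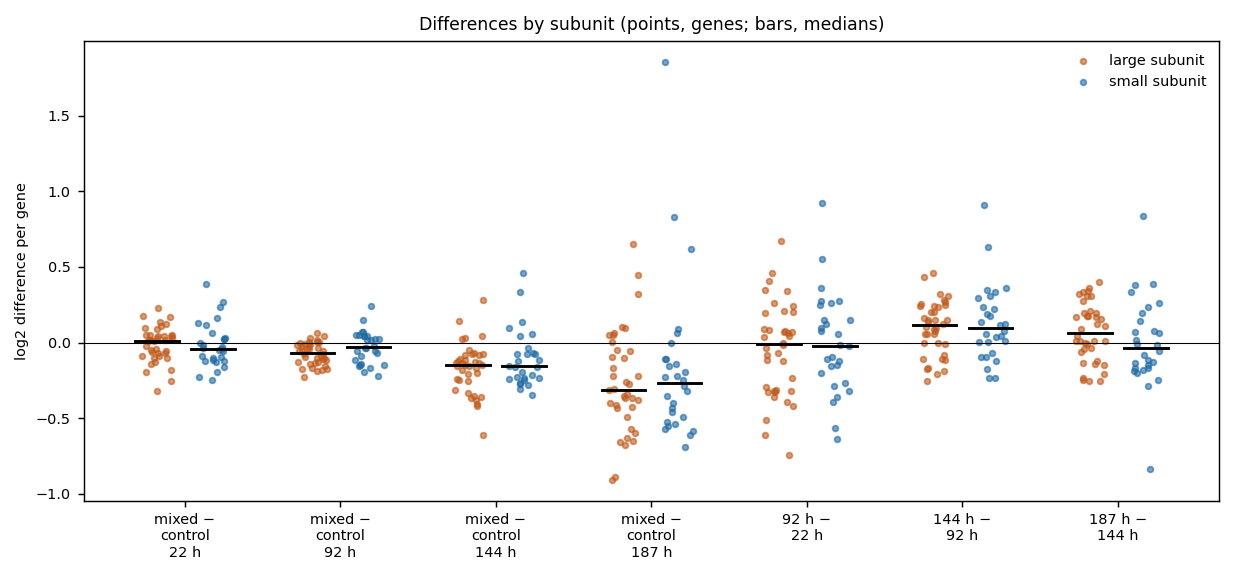
Difference of every member in 4 comparisons of mixed with control fermentations and in 3 time steps (log2; orange, 38 large subunit genes; blue, 28 small subunit genes; bars, medians). The widest gap between the medians of the 2 subunits is the 0.10 of the last step, and the genes of a subunit spread more widely than that; on the spike-in scale all points of a comparison shift together.

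Large and small subunit genes were close to each other in these comparisons. At 187 h 7 of 38 large subunit genes were lower and 1 was higher, and 4 of 28 small subunit genes were lower and 1 was higher, with medians of -0.31 and -0.26. The large minus small gap of these medians was -0.05 at 187 h, with slides at -0.013 and 0.0035, and 0.05 at 22 h, -0.04 at 92 h and 0.01 at 144 h. Over the average of the times it was 0.02, with 4 large subunit genes lower, and 4 small subunit genes lower and 1 higher. The steps gave 0.01 from 22 h to 92 h, 0.02 from 92 h to 144 h and 0.10 from 144 h to 187 h (slides 0.12 and 0.04). No p-value is given for these gaps, which are medians over chosen genes.

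The 22 h to 92 h step called 10 large subunit genes lower and 7 higher, and 6 small subunit genes lower and 2 higher. Among the later rises the small subunit had 3 of 4 from 92 h to 144 h and the large subunit 3 of 4 from 144 h to 187 h. Members with a bacterial family name had 8 lower and 2 higher of 41 at 187 h (median -0.26), and those with a mitochondria-specific name 3 lower and 0 higher of 24 (median -0.34). The slides gave -0.28 and -0.26 for the bacterial families and -0.24 and -0.42 for the mitochondria-specific ones, so their order differed between slides.

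**Figure D5:**
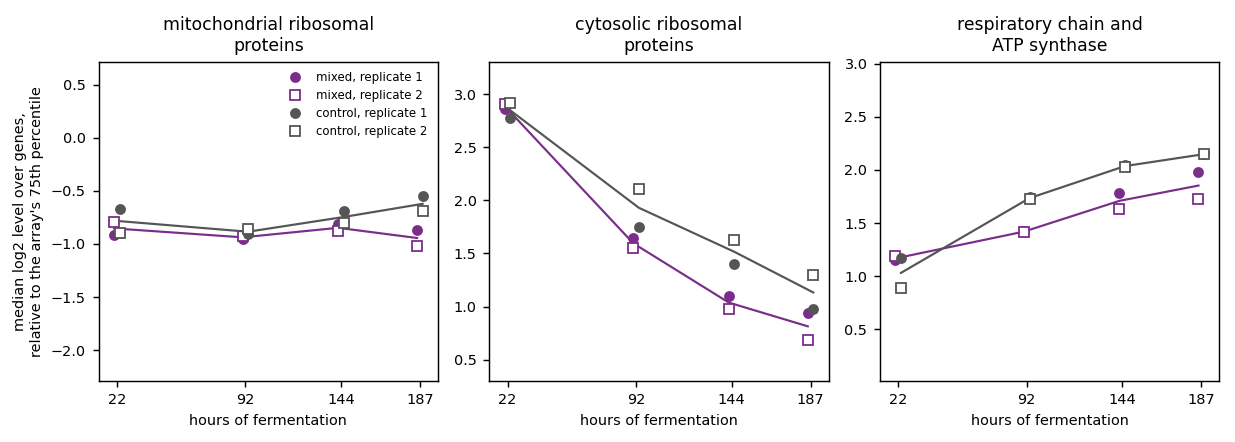
Median level over the 66 mitochondrial ribosomal protein genes, 138 cytosolic ribosomal protein genes and 36 nuclear genes of the respiratory chain and ATP synthase on each array against time (log2 relative to the 75th percentile of the array; purple, mixed; grey, control; the panels have the same span and different offsets). The mitochondrial ribosomal median stays between -1.02 and -0.55 while the cytosolic one falls and the respiratory one rises; on the spike-in scale the medians of all 3 lists fall from 22 h to 92 h.

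Cytosolic ribosomal protein genes, the counterpart in the main protein factory of the cell, behaved differently over time. Of 138, 132 fell and 0 rose from 22 h to 92 h with a median of -1.08 (29.2% of all probes fell), 86 fell from 92 h to 144 h (median -0.46, with 9.04% of all probes) and 22 from 144 h to 187 h (median -0.26, with 5.51%). RPS18B fell by 1.73 ± 0.10 and RPS7A by 1.59 ± 0.10 at the first step. In mixed fermentations 24 of the 138 were lower at 187 h (median -0.36, with 4.46% of all probes lower), with RPL22B at -1.20 and RPL30 at -0.93. On the spike-in scale 138, 8 and 0 fell at the 3 steps and 0 were lower at 187 h, and with array medians 12 fell at the last step and 12 were lower at 187 h. The median of the mitochondrial list on single arrays lay between -1.02 and -0.87 in mixed and between -0.69 and -0.55 in control fermentations at 187 h, and that of the cytosolic list between 0.69 and 0.94 in mixed and between 0.97 and 1.29 in control fermentations. Counts over all probes on the spike-in and array median scales are not given here. The difference between the lists was not tested.

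Nuclear genes of the respiratory chain and ATP synthase, whose partners the mitoribosome makes, moved the other way over time. Of 36, 19 rose and 6 fell from 22 h to 92 h (median 0.36), where 36.2% of all probes rose and 29.2% fell, with QCR8 up by 1.98 ± 0.11 and COX6 at -0.81 ± 0.13. At the later steps 13 and 15 rose (medians 0.33 and 0.43), beside 6.34% and 5.81% of all probes. On the spike-in scale the first of these medians turned to -0.80 with 1 rise and 23 falls, and the later ones were 0.03 and 0.16 with 1 and 0 rises. Counts over all probes on that scale are not given here. In mixed fermentations at 187 h 5 of the 36 were lower and 0 higher, beside 4.46% and 2.81% of all probes, with SDH3 at -0.99 ± 0.17 and ATP4 at -0.81 ± 0.14, and the list median was -0.25.

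Lists of other genes of mitochondrial translation were compared between the kinds in the same way. Beside their counts, 4.46% of all probes were lower and 2.81% higher at 187 h (median -0.06), and 5.37% and 3.22% in the average. The 14 mitoribosomal proteins with other symbols had 1 lower at 187 h, MNP1 (the bL12m protein, -0.50 ± 0.12), and a median of -0.18. The 13 aminoacyl-tRNA synthetases, which charge tRNAs, all had negative differences at 187 h, with a median of -0.31 and 1 called, MSY1 (-0.49 ± 0.13). Among 13 assembly factors and membrane tethers, a list that also holds the member RSM22, MTG1, a GTPase of large subunit assembly, was lower (-0.58 ± 0.14). Among 18 translational activators PET309 (-0.55 ± 0.12) and PET494 (-0.62 ± 0.15) were lower. The 12 genes listed as translation factors include GTF1, PET112, HER2 and FMT1, which encode enzymes that act on charged tRNA. This list had 0 called at 187 h in limma (median -0.24), with RRF1 (-0.30 ± 0.08) and PET112 (-0.24 ± 0.06) lower in the average over times. The 9 regulators and the 2 genes of mitochondrial transcription had 0 called at 187 h and in the average in limma (medians 0.06 and -0.09 at 187 h, with 2 and 1 at an unadjusted p under 0.05). Beside the 0 of the translation factor list stood 4 at that unadjusted level. The unadjusted counts of these lists stand without that of all probes, so they are a description only.

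At the first step these lists had calls in both directions, except the regulators and the transcription genes with 0 falls, and 36.2% of all probes rose and 29.2% fell. From 22 h to 92 h 5 of the 12 genes of the translation factor list rose, a share near that of all probes. The elongation factor gene MEF2 (1.67 ± 0.12) and GTF1 (1.48 ± 0.14), a gene of a tRNA enzyme, led, and the release factor gene MRF1 fell by 0.48 ± 0.10. VAR1, the ribosomal protein encoded in mitochondrial DNA, rose by 1.25 ± 0.19 and YML6 by 0.66 ± 0.12, while MNP1 fell by 0.77 ± 0.09. MTG2 (1.18 ± 0.14) and MTG1 (0.54 ± 0.10) rose, and MRM1 (-0.57 ± 0.13), an rRNA methyltransferase, and MDM38 (-0.49 ± 0.11) fell. Among activators PET122 (0.90 ± 0.11) and PET494 (0.76 ± 0.11) rose and MSS116 (-0.67 ± 0.15) and RMD9 (-0.32 ± 0.10) fell. HAP1, a heme-responsive regulator, rose by 1.48 ± 0.12, PUF3, which binds messages for mitochondrial proteins, by 0.49 ± 0.17 and the mitochondrial RNA polymerase gene RPO41 by 0.45 ± 0.12. NAM2 (0.51 ± 0.13) rose and DIA4 (-0.39 ± 0.13) fell among the synthetases, whose list median was -0.17, against -0.01 for the ribosomal proteins. On the spike-in scale the median of all probes at this step was -1.09, against 0.07 on the main scale, and 0 genes of these lists rose.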

How the data were processed

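Per the file headers, the deposited scanner files held spot intensity values and flags from Feature Extraction 10.7.3.1. The processed intensity was used as log2, after 50 outlier spots were left out, with the 2 spots of a probe averaged and each array set to its 75th percentile. The deposited value table held log2 signals of the authors. On every array at least 99.58% of its probes differed from the processed intensity (log2) by a constant to within 0.05. Its array medians differed between times, so it served as an alternative for mixed against control only.

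The 72 probes well above background on fewer than 2 arrays were removed and 6184 tested. limma 3.58.1 in R 4.3.3 fitted 1 mean per group (8 residual degrees of freedom, 3.26 prior), with Benjamini-Hochberg adjustment per comparison over all probes. Other steps used pandas 2.3.3 and numpy 2.4.6 in Python 3.11.15, and figures matplotlib 3.10.9. The fit was tested on simulated data, but no result of that test is given here, so it lends no support to the calls.

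The members and gene lists were chosen with earlier results of these data known. Members were named when called in the average or at 187 h, when among the 6 widest called per direction of a step, or when among the 3 of smallest p per direction at the other times, and up to 2 genes per direction of each list. A planned choice by mean level was dropped because probes are not comparable in level. The RefSeq table (assembly R64) paired 5756 of 6256 probe identifiers with a symbol and was used for names only.

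Same-numbered mixed and control arrays share a slide. Their deviations from the group means correlated at -0.468 (22 h), 0.245 (92 h), 0.253 (144 h) and 0.108 (187 h), so the numbers were not taken to pair the samples. Alternatives were 4 other scalings or background corrections, the deposited table, other filters, blocks, single arrays left out, the compared times alone, the average without 187 h and a wider member list, and, chosen after seeing the data, signals without multiplicative detrending and the brighter of unequal spots. Normexp, with an offset of 50, was run on median spot signals. The number of arrays limits the precision.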

Additional observations from a re-analysis of the deposited data

Results flagged for a closer look

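MRPL44 was higher in mixed fermentations at 22 h on both slides (0.121 and 0.331) and lower at 187 h on both (-0.480 and -0.503), so its slides lay on opposite sides of 0 at the 2 times. The interaction of kind and time was tested in limma and did not pass for MRPL44 (-0.72 ± 0.16, adjusted p = 0.139).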

How the results depend on the processing

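The calls between mixed and control fermentations depended on the setting. The direction of the 9 members called in the average did not turn in 261 values under alternatives, nor that of the 13 called at 187 h in 221. Many of these values could not turn. Filters, blocks and the compared times alone leave a difference unchanged, and leaving out 1 array cannot turn groups that do not overlap. All 9 members that rose at the first step were lower there on the spike-in scale. The counts of members called that follow stand without those of all probes, which a change of scale also shifts. They describe how the calls depended on the setting and are no result about the members. In the average over times 9 members were called, and the count was 5 with array medians, 0 on the spike-in scale, 4 with normexp, 2 with the fermentation as a random block, 3 without multiplicative detrending, 0 without the 187 h difference and 0 to 13 with single arrays left out. At 187 h 13 were called, and 1 on the spike-in scale, 8 with normexp, 0 with the compared time alone, 7 without detrending and 0 to 15 with single arrays left out. The steps had 25, 4 and 4 calls. The first had 63 on the spike-in scale and 17 to 23 with single arrays left out. The second had 10 with array medians, 9 with quantile normalization, 0 with spike-ins, 10 with normexp, 8 with the random block, 8 with the compared times alone, 2 without detrending, 7 with brighter spots and 1 to 5 with single arrays left out. The third had 11, 7, 0, 9 and 7 in the first 5 of these settings, 1 with the compared times alone and 1 to 5 with single arrays left out. The interactions had 0 calls, or 0 to 1 (187 h against 144 h) and 0 to 2 (187 h against 22 h) with single arrays left out. With the replicate block, which is also the slide, the counts were 8, 14, 26, 5 and 4 in the same order, and in the average MRPL17 and RSM23 no longer passed (limma adjusted p = 0.0511 and 0.0513).

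The other values that turned were medians, uncalled members and values on the spike-in scale. The 22 h member median turned to 0.022 with array medians, 0.51 with spike-ins, 0.0074 with normexp, 0.015 with the deposited table and 0.0062 without detrending, and to 0.029 and 0.077 without the first mixed or control array (range from -0.112 with single arrays left out). Spike-ins turned the later step medians to -0.19 and -0.25, and single arrays left out gave -0.031 to 0.068 for the last one and -0.070 to 0.045 for the first. At 92 h against 22 h spike-ins gave MRPL27 -0.81, MRPL28 -0.75, MRPL51 -0.70, MRPS18 -0.61, MRPL39 -0.49 and MRPS17 -0.24, and at 22 h MRPL10, RSM23 and MRPS18 0.34, 0.34 and 0.31. MRPS28 at 92 h turned to -0.044 (spike-ins) and -0.0040 (normexp), with -0.024 to 0.163 when single arrays were left out, and MRP20 at 144 h ran from -0.125 without the first mixed array to 0.694. The large minus small gap moved beyond the spread of the slides with means over members (-0.048 in the average, -0.044 at 92 h, -0.063 at 144 h, -0.089 at 187 h, -0.041 and -0.030 at the first 2 steps), with quantile normalization (-0.053 at 92 h, -0.065 at 187 h, -0.013 at the first step) and with normexp (-0.058 at 92 h, -0.011 at the first step). The cause of these shifts was not tested. Of the values of named members under alternatives 888 kept direction and side of the threshold, 287 kept direction and lost the call and 13 turned. Among these values too are settings that leave a difference unchanged.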
